A study of Xenopus laevis with 4 samples.

Results

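Keratin genes were taken as every gene model whose symbol starts with krt and a digit, leaving out the unrelated krtcap genes. There were 71 such gene models among 39176 in the table, 40 of them L copies and 31 S copies. *Xenopus laevis* is allotetraploid, and L and S mark the copies (homeologs) of a gene on its 2 subgenomes, which were kept apart. The members fall under 43 gene names, 28 of them with both copies. By the human-style number, 28 members were type I keratins, 23 were type II keratins and 20, such as krt70 and krt50 to krt62, carry a number that gives no type.

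The study compared 2 libraries of explants treated with 0.5 mM picrotoxin for 3 h with 2 control libraries incubated for the same time. Picrotoxin is a blocker of GABA-A receptor chloride channels. Each library was made from the total RNA of a pool of explants from 3 stage 26 (tail bud) embryos. The explants were the part of the embryo behind the otic vesicle, freed of the ventral yolk after treatment. The sources used here do not give the strain or the vehicle of the controls. An explant holds epidermis together with neural tube, somites, notochord and gut, and keratin reads were not assigned to a tissue. In such bulk measurements fewer or more cells of a type and less or more RNA per cell cannot be told apart.

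Keratins are the intermediate filament proteins of epithelial cells. A type I chain pairs with a type II chain, and the pairs assemble into filaments that are anchored at desmosomes between cells and at hemidesmosomes on the basement membrane. In *Xenopus* the embryonic epidermis makes its own early set of keratins, of which krt12.4 (also called epidermal keratin or xk81a1) is a standard marker of epidermal fate. Other keratins are named larval (xlk) or adult (xak) after the skin of later stages, and krt8 with krt18 forms the filament pair of simple epithelia.

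Library totals were 20285273 and 20974160 counts in picrotoxin replicates 1 and 2, against 18164631 and 20660589 in control replicates 1 and 2. Ribosomal RNA made up 42.0% and 25.1% of the picrotoxin libraries, against 38.0% and 39.6% of the control libraries, so picrotoxin replicate 2 stands apart. Counts are estimates per transcript summed to genes, and levels are given as CPM, counts scaled to a common library size after trimmed mean (TMM) normalization. A share of counts also grows with transcript length, which was not used here, so an order among different genes is an order of counts and not of molecules. How far reads were divided between near-identical copies is not known, and the level of any single copy is therefore uncertain.

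Keratin transcripts were abundant in every library, with a small part of the family giving nearly all of the counts. Keratin counts made up 3.28% and 3.40% of the counts outside ribosomal RNA in the picrotoxin libraries, against 3.08% and 2.88% in the control libraries. The exact 95% binomial interval, which covers counting error only, ran from 3.27% to 3.29% in picrotoxin replicate 1 and from 2.87% to 2.89% in control replicate 2. The mean share was 3.34% ± 0.09 with picrotoxin and 2.98% ± 0.14 in controls (SD, n = 2 per group), and both picrotoxin libraries lay above both control libraries. With ribosomal RNA kept in the total, the share was 1.90% and 2.55% in picrotoxin replicates 1 and 2, against 1.91% and 1.74% in control replicates 1 and 2. These values overlap, and the higher one was that of picrotoxin replicate 2, the library with less ribosomal RNA. No test was made of the summed share. The 15 members with at least 1000 counts in every library carried between 99.5% and 99.6% of all keratin counts. Another 16 members reached at least 10 but fewer than 1000 counts in some library and held 0.44% to 0.51%, 21 members never exceeded 9 counts, and 19 had no count in any library.

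**Figure D1:**
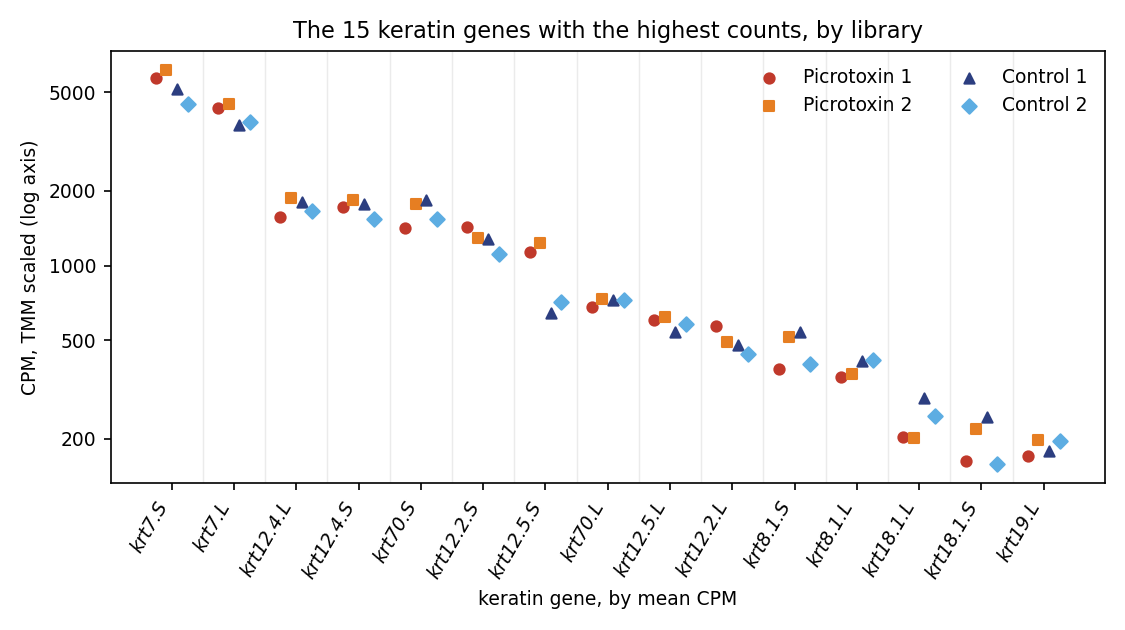
Level of the 15 keratin genes with the highest counts, in CPM on a log axis, with 1 point per library (red and orange, picrotoxin; dark and light blue, control). The krt7 copies lie highest, and krt12.5.S has both picrotoxin points, 1139 and 1230 CPM, well above both control points, 643 and 714 CPM.

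The type II gene krt7 supplied nearly as many counts as all other keratins together. RefSeq lists its L copy also as xck55, after an early cloned *Xenopus* cytokeratin. The S copy stood at 5713 and 6122 CPM in picrotoxin replicates 1 and 2, against 5166 and 4466 CPM in control replicates 1 and 2. The L copy stood at 4332 and 4467 CPM with picrotoxin, against 3675 and 3808 CPM in controls. For both copies the picrotoxin libraries lay above the control libraries. The log2 fold changes, always picrotoxin over control, were 0.30 ± 0.13 for krt7.S and 0.23 ± 0.12 for krt7.L (SE), and neither passed (adjusted p = 0.574 and 0.682 over 26752 genes, quasi-likelihood test of edgeR, Benjamini-Hochberg). The unadjusted p was 0.0262 for krt7.S and 0.0602 for krt7.L (edgeR). Without 1 library krt7.S ran from 0.20 (control replicate 2 left out) to 0.41 (control replicate 1 left out). Summed over its copies, krt7 held 48.9% and 48.1% of keratin counts in the picrotoxin libraries, against 44.9% and 45.7% in the control libraries. No other type II gene came near: krt8.1 held 3.59% and 4.01%, against 4.84% and 4.51%.

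The krt12 genes and krt70, which lie in the same clusters on chromosomes 9_10L and 9_10S, followed in the order of counts. The marker krt12.4 stood at 1565 and 1872 CPM (L copy) and 1730 and 1839 CPM (S copy) in the picrotoxin libraries. Its control values were 1809 and 1667 CPM (L copy) and 1769 and 1546 CPM (S copy). The groups overlapped for both copies, and the log2 fold changes were -0.02 ± 0.12 and 0.11 ± 0.11 (SE). The krt70 gene, listed by RefSeq also as xk70, stood at 1412 and 1770 CPM for krt70.S with picrotoxin, against 1841 and 1536 CPM in controls. Its L copy varied little, with 683 and 731 CPM with picrotoxin and 728 and 729 CPM in controls. Log2 fold changes were -0.09 ± 0.13 for krt70.S and -0.04 ± 0.11 for krt70.L (SE), and both copies overlapped between groups. The copies of krt12.2 had both picrotoxin libraries above both control libraries, with log2 fold changes of 0.19 ± 0.11 for krt12.2.S (1427 and 1288 CPM, against 1278 and 1110 CPM) and 0.21 ± 0.11 for krt12.2.L (571 and 490 CPM, against 477 and 441 CPM). Neither passed (adjusted p = 0.770 and 0.705, edgeR). Leaving out a library put krt12.2.S at 0.087 (control replicate 2 left out), 0.11 (picrotoxin replicate 1) or 0.29 (control replicate 1), and it was at 0.03 once running medians along the chromosomes were removed. Likewise krt12.2.L was at 0.094 with picrotoxin replicate 1 left out and at 0.32 with picrotoxin replicate 2 left out.

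Among the keratin genes tested, krt12.5.S rose. RefSeq lists this type I gene also as xk81b2, and its symbol places it beside krt12.4. It had 21379 and 29832 counts in picrotoxin replicates 1 and 2, against 11321 and 14158 counts in control replicates 1 and 2. As CPM these were 1139 and 1230 with picrotoxin, against 643 and 714 in controls, with no overlap. The mean was 1184 ± 64.4 CPM with picrotoxin and 678.7 ± 49.99 CPM in controls (SD, n = 2 per group). This is a log2 fold change of 0.80 with a standard error of 0.11 (edgeR adjusted p = 0.000593). Without picrotoxin replicate 2, the library with less ribosomal RNA, it was 0.75. Without control replicate 2 the log2 fold change was 0.88 and the call was lost. A fit without 1 library leaves 1 library in a group, so its calls rest on the spread within the other group. With library totals in place of TMM scaling the log2 fold change was 0.92 and the call was lost too (edgeR adjusted p = 0.238). Within keratin counts the share of krt12.5.S was 5.54% and 5.58% in the picrotoxin libraries, against 3.27% and 3.94% in the control libraries.

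The L copy of the same gene did not pass, and the difference between the copies did. The krt12.5.L copy stood at 603 and 619 CPM with picrotoxin, against 540 and 582 CPM in controls, 0.12 ± 0.11 on the log2 scale (SE; edgeR adjusted p = 0.864). The S copy made up 65.4% and 66.5% of the CPM of the pair in the picrotoxin libraries, against 54.3% and 55.1% in the control libraries. The log2 ratio of S over L was 0.68 higher with picrotoxin, with a 95% interval of 0.50 to 0.86 (limma on the S over L ratio, adjusted p = 0.000104 over 6348 homeolog pairs). Of all pairs, 0.126% (8 of 6348) passed this test, and among 12 keratin pairs krt12.5 passed. At an unadjusted p under 0.05 there were 2 keratin pairs, krt12.5 and krt19, and 5.84% of all pairs. The change in ratio stayed between 0.64 and 0.72 when each library was left out in turn. These ratios were not corrected for the running medians along the chromosomes. With copies summed, krt12.5 was at 0.54 ± 0.10 on the log2 scale (SE; edgeR adjusted p = 0.0260).

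**Figure D2:**
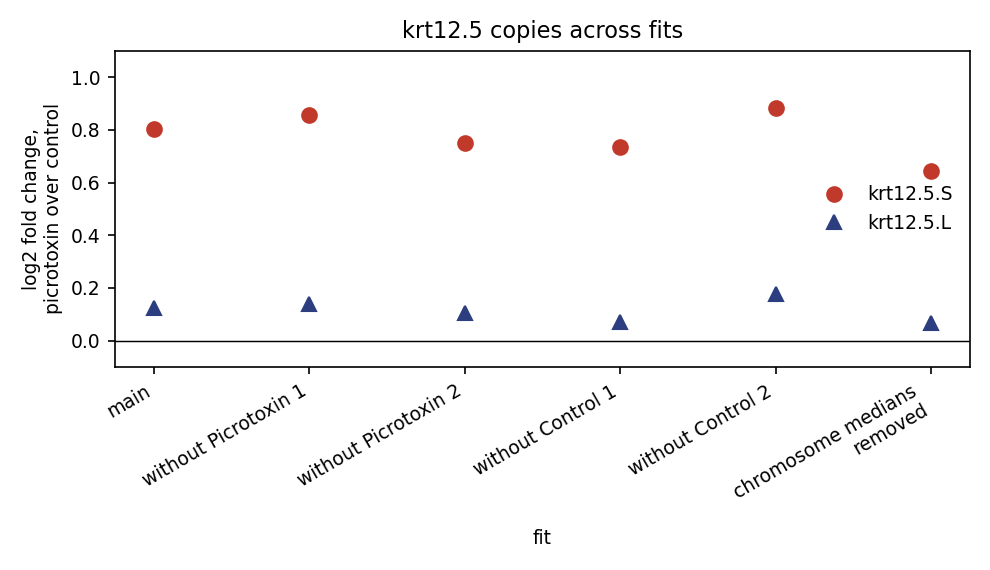
Log2 fold change, picrotoxin over control, of krt12.5.S (red circles) and krt12.5.L (blue triangles) in the fit of all 4 libraries, with each library left out, and with running medians along the chromosomes removed. The S copy lies between 0.64 and 0.88 and the L copy between 0.07 and 0.18 in these fits.

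Most type I keratin genes lie in clusters on chromosomes 9_10L and 9_10S, and krt12.5.S sits on 9_10S. The median gene of 9_10S, over 1283 genes, lay at log2 0.04 and 0.05 in picrotoxin replicates 1 and 2 relative to the mean of all libraries, against 0.01 and -0.10 in control replicates 1 and 2. The medians of 2S, which carries krt7.S, were 0.02 and 0.02 with picrotoxin, against 0.05 and -0.08 in controls. All 1442 tested genes of 9_10S, among 26752 in all, had a median log2 fold change of 0.09. Of the 22 genes called higher, 0.0822% of all genes, 11 lie on 9_10S, krt12.5.S among them. After each library's running medians along the chromosomes were taken out, krt12.5.S was at 0.64 ± 0.10 (SE; adjusted p = 0.0243, edgeR) and krt12.5.L at 0.07 ± 0.09 (SE; adjusted p = 0.936). In the same fit krt7.S was at 0.31 ± 0.11 (SE), beside 0.30 in the main fit. The 10 tested keratin genes of 9_10S ran from -0.09 to 0.80 with a median of 0.06, with krt12.5.S at the top.

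RefSeq gives krt12.5.S a curated and a predicted transcript. The curated one held 13905 and 18554 counts in the picrotoxin libraries, against 7919 and 9596 in the control libraries. The predicted one held 7475 and 11278 counts with picrotoxin, against 3402 and 4562 in controls. Both were thus higher in both picrotoxin libraries. The predicted form took 35.0% and 37.8% of the gene with picrotoxin, against 30.1% and 32.2% in controls. How well the counting tells these transcripts apart is not known, and this shift was not tested.

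Over the family, the test found a single change. Of 30 keratin genes with enough counts, krt12.5.S rose, 0 fell and 29 did not pass, by edgeR. DESeq2 and limma-voom likewise called krt12.5.S higher and no other keratin gene. DESeq2 gave no adjusted p for the low gene krt15.2.L. Over all 26752 genes 0.0822% were called higher and 0.0935% lower, 0.176% in all. At an unadjusted p under 0.05 there were 4 keratin genes higher and 1 lower, where 3.35% of all genes were higher and 4.16% lower, 7.51% in all. Both picrotoxin libraries lay above both control libraries for 9 of the 30 and below them for 4, where 18.2% and 18.9% of all genes did. The median log2 fold change of the 30 was 0.01, and that of all genes -0.00041. Of the 30, krt12.1.L, krt15.2.L and krt80.S reached 10 counts in both libraries of the picrotoxin group only. Neither control library of krt12.1.L or krt15.2.L reached 10 counts. These genes passed the count filter through the picrotoxin group and therefore had to come out higher. Both of these are among the 9, and krt15.2.L is among the 4 at an unadjusted p under 0.05.

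**Figure D3:**
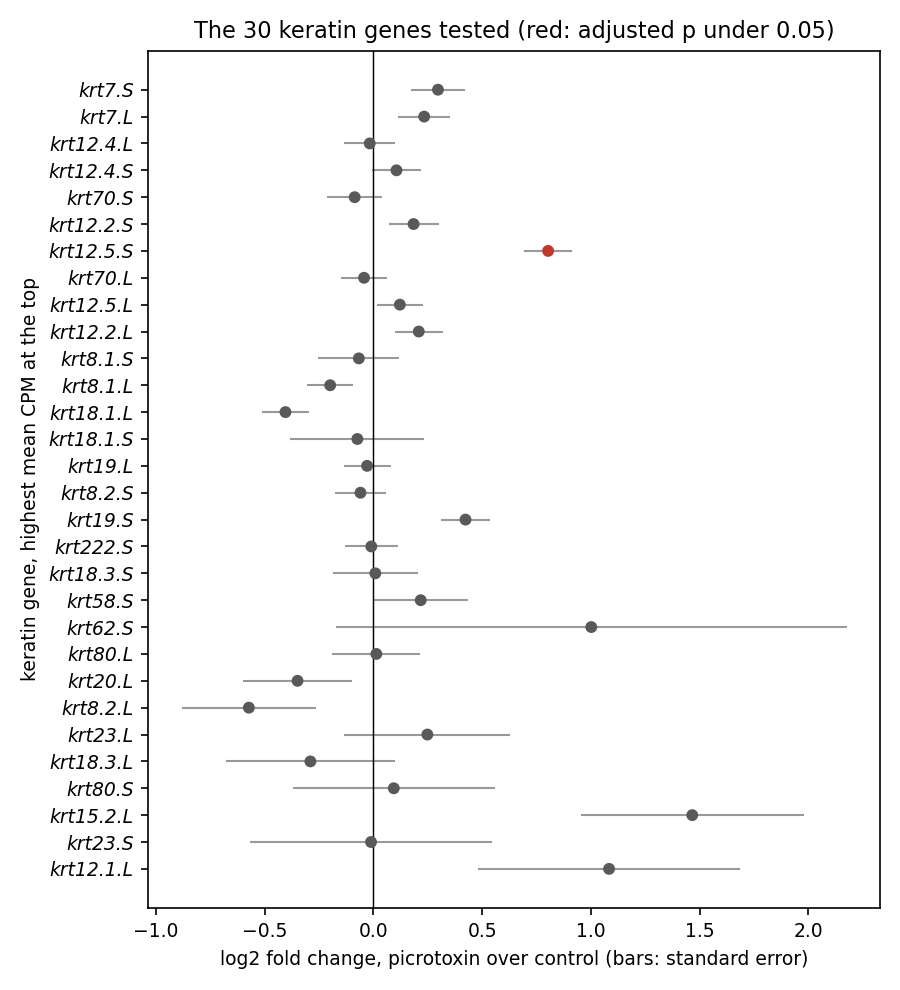
Log2 fold change, picrotoxin over control, with its standard error, of the 30 keratin genes tested, ordered by mean CPM from the top. The red point, krt12.5.S at 0.80, passed an adjusted p of 0.05. The widest bar is that of krt62.S, at 1.0 ± 1.17, whose libraries differed within groups. After it, the lowest genes have the widest bars.

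The summed keratin level was higher in both picrotoxin libraries. All keratins together came to 20556 and 22030 CPM in the picrotoxin libraries, against 19691 and 18109 CPM in the control libraries. The krt7 copies held 10045 and 10589 CPM, against 8842 and 8274 CPM. With krt7 and krt12.5.S set aside, a split chosen after the values were seen, the other keratins summed to 9372 and 10211 CPM with picrotoxin, against 10206 and 9122 CPM in controls. These overlapped, while the sums of krt7 and of krt12.5.S, genes set aside with their values known, did not. Of the 15 highest members, krt12.2.S, krt12.2.L and krt12.5.L also lay higher in both picrotoxin libraries and stayed among the other keratins. So did krt8.1.L and krt18.1.L, which lay lower in both.

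**Figure D4:**
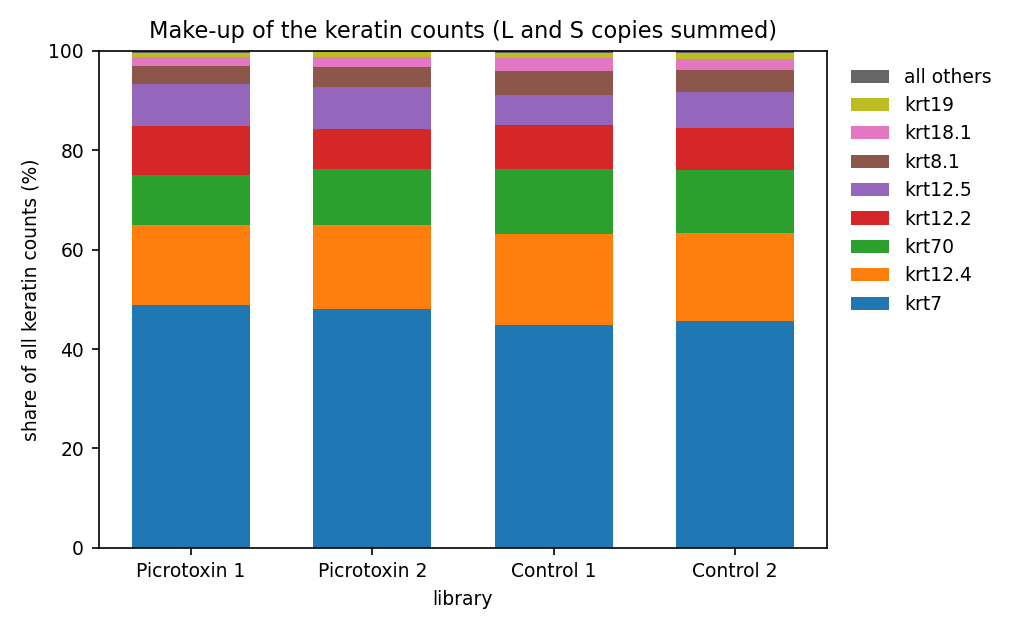
Share of all keratin counts held by each gene, L and S copies summed, in percent, with 1 bar per library and the picrotoxin libraries on the left. The krt7 block takes 48.9% and 48.1% in the picrotoxin libraries and 44.9% and 45.7% in the control libraries, and the krt12.5 block takes 8.48% and 8.39%, against 6.01% and 7.16%.

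Among the 15 highest members, 7 held a smaller share of keratin counts in both picrotoxin libraries than in both control libraries, 2 (krt7.S and krt12.5.S) a larger one, and 6 overlapped. The 7 were both copies of krt12.4 and of krt70 and the L copies of krt8.1, krt18.1 and krt19. Shares sum to a fixed total, so a larger share of one gene lowers those of the rest. As CPM, 6 of the 15 lay higher in both picrotoxin libraries than in both control libraries, 2 lay lower and 7 overlapped. Over all genes 18.2% lay higher and 18.9% lower. Of the 432 tested genes at least as high as krt19.L, ribosomal RNA included, 91 lay higher and 87 lower. The simple epithelial gene krt18.1, summed over copies, held 1.78% and 1.92% of keratin counts with picrotoxin, against 2.72% and 2.24% in controls. As levels, the summed copies overlapped between groups, with 366 and 424 CPM for krt18.1 with picrotoxin, against 535 and 405 CPM in controls. For krt8.1 they were 736 and 886 CPM with picrotoxin, against 952 and 816 CPM in controls. The krt18.1.L copy stood at 204.4 and 202.4 CPM in the picrotoxin libraries, against 291 and 247 CPM in the control libraries, with no overlap. Its log2 fold change of -0.40 ± 0.11 (SE) did not pass (adjusted p = 0.195, unadjusted p = 0.00104, edgeR). Its filament partner krt8.1.L stood at 354 and 367 CPM with picrotoxin, against 412 and 415 CPM in controls (log2 fold change -0.20 ± 0.10 SE, adjusted p = 0.702). Their S copies differed more within groups than between them. The krt18.1.S copy had 162 and 220.3 CPM with picrotoxin, against 244 and 159 CPM in controls. The krt8.1.S copy had 383 and 517 CPM with picrotoxin, against 541 and 402 CPM in controls. In both, picrotoxin replicate 2 and control replicate 1 were the high libraries of their group. These 2 libraries lay above the other 2 for 5 of the 15 highest keratins. They did so for 23.9% of the 426 genes outside ribosomal RNA at least as high as krt19.L. Markers of the notochord, which in *Xenopus* embryos also makes krt8 and krt18, had a median log2 fold change of -0.19 over 15 gene models. Of these, 0 were called by edgeR, DESeq2 or limma-voom and 1 had an unadjusted p under 0.05 (edgeR). The median over all genes was -0.00041, and 7.51% of them had an unadjusted p under 0.05. The summed CPM of the notochord markers was 591 and 567 with picrotoxin, against 626 and 550 in controls, which overlap. Their part in the krt18.1 values was not tested.

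The type I gene krt19, made in simple epithelia in mammals, differed in level by copy. The krt19.L copy stood at 170 and 197 CPM with picrotoxin, against 179 and 196 CPM in controls. The krt19.S copy, far lower, stood at 25.5 and 25.2 CPM with picrotoxin, against 18.6 and 19.1 CPM in controls, with no overlap. Its log2 fold change was 0.42 ± 0.11 (SE; adjusted p = 0.195, unadjusted p = 0.00103, edgeR). With chromosome medians removed it was 0.26 (edgeR adjusted p = 0.565). The S over L ratio of krt19 was 0.44 higher on the log2 scale with picrotoxin, with a 95% interval of 0.20 to 0.68, and did not pass (limma, adjusted p = 0.282 over all pairs).

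In the 11 other pairs no change in the balance of L and S copies passed the test. The S copy gave 56.9% and 57.8% of krt7 in the picrotoxin libraries, against 58.4% and 54.0% in the control libraries. It gave 71.4% and 72.5% of krt12.2 with picrotoxin, against 72.8% and 71.6% in controls. It gave 67.4% and 70.8% of krt70 with picrotoxin, against 71.7% and 67.8% in controls. The copies of krt12.4 were near parity, with 52.5% and 49.6% from the S copy with picrotoxin, against 49.4% and 48.1% in controls. The pairs krt8.2 and krt19 leaned to opposite copies, with 93.9% and 95.1% from the S copy of krt8.2 with picrotoxin, against 94.5% and 89.9% in controls, and 13.0% and 11.3% from the S copy of krt19, against 9.43% and 8.88%. The S copy was the higher one in 7 of the 12 pairs and in 39.7% of all 6348 pairs. The 95% intervals of the change in the log2 ratio were -0.10 to 0.24 for krt7, -0.04 to 0.30 for krt12.4, -0.25 to 0.15 for krt70 and -0.20 to 0.16 for krt12.2. An interval that spans 0 does not show that a balance was the same in both groups.

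**Figure D5:**
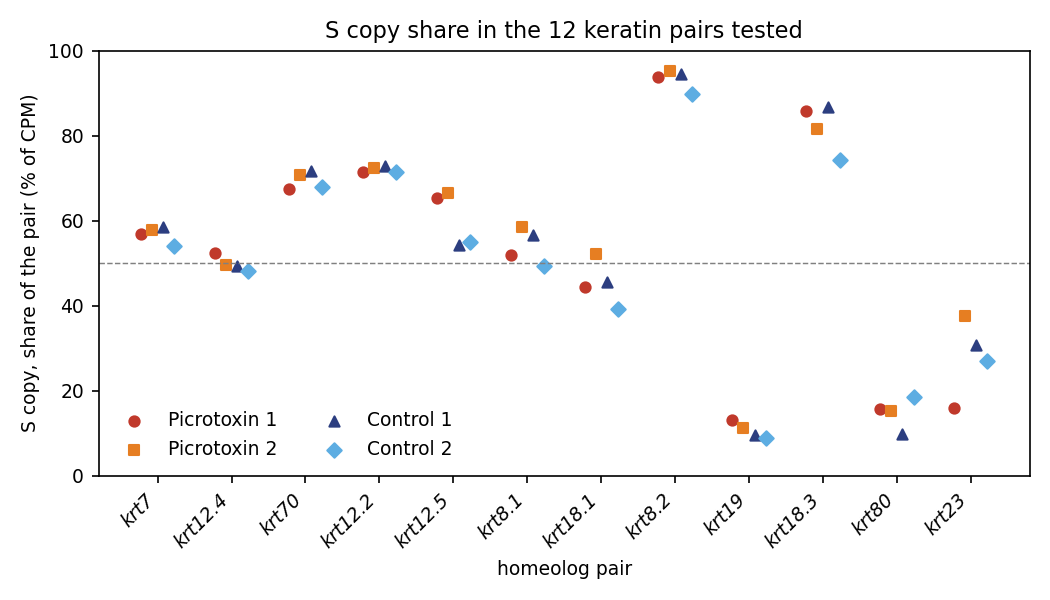
Share of the S copy in the CPM of each of the 12 keratin homeolog pairs tested, in percent, with 1 point per library (red and orange, picrotoxin; dark and light blue, control) and a dashed line at 50%. The krt12.5 points split by group, 65.4% and 66.5% with picrotoxin and 54.3% and 55.1% in controls.

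Keratins named for later skin were scarce at this stage. The larval gene krt62.S (xlk) had 180 and 56 counts in the picrotoxin libraries, against 26 and 83 in the control libraries, so that its libraries differed more within groups than between them (log2 fold change 1.0 ± 1.17 SE, adjusted p = 0.931, edgeR). Its L copy had no count in any library. The larval gene krt15.2.L (xlk2) had 26 and 18 counts with picrotoxin, against 5 and 9 in controls, 1.47 ± 0.51 on the log2 scale (SE; edgeR adjusted p = 0.430). Since it reached 10 counts in both picrotoxin libraries and in neither control library, it had to come out higher. The adult genes were at the floor: krt51.L (xak-a) had at most 5 counts in a library, krt12.6.S (xak-c) at most 4, and krt55.L (xak-b) had none. A count of 0 allows a level of up to 0.12 to 0.17 CPM (3 counts in a library), for counting error only. All 15 krt78 gene models, a type II family on chromosomes 2L and 2S, stayed under 10 counts in every library, and 9 of them had none.

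Partners of the keratin filament were measured beside it. The counts of list members at an unadjusted p under 0.05 given from here on stand beside 3.35% of all genes higher and 4.16% lower, 7.51% in all. Desmosome and linker genes had 23 gene models tested, with 0 called by edgeR, DESeq2 or limma-voom, 3 at an unadjusted p under 0.05 and a median log2 fold change of 0.08. These 3 were the linker gene ppl.S (periplakin, 0.30 ± 0.11 SE, adjusted p = 0.451) and both copies of jup (plakoglobin), jup.L at 0.24 and jup.S at 0.22, with picrotoxin libraries above control libraries in each. Hemidesmosome and basement membrane genes had 20 tested, 0 called by the same tools, 4 at an unadjusted p under 0.05, all above 0, and a median of 0.03. The largest of these was col17a1.L, the hemidesmosome collagen, at 3.62 and 3.30 CPM with picrotoxin, against 2.27 and 1.66 CPM in controls (0.82 ± 0.26 SE, adjusted p = 0.334, edgeR). The integrin gene itgb4.L, which binds keratin linkers in the hemidesmosome, was at 0.33.

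Regulators and other cells of the epidermis gave no call either. Of 41 gene models of epidermal transcription factors, 0 were called by edgeR, DESeq2 or limma-voom and 4 had an unadjusted p under 0.05, with a median of 0.03. Among them tp63.L, the p63 gene of basal epidermis, stood at 47.9 and 49.5 CPM with picrotoxin, against 37.5 and 41.0 CPM in controls (0.31 ± 0.10 SE, adjusted p = 0.397), and gata2.L, gata3.L and gata3.S were at -0.48, -0.40 and -0.44. Epithelial adhesion genes had 31 tested and a median of 0.04, and cornified envelope genes 14 and 0.00, with 0 called by the same tools and 2 and 3 at an unadjusted p under 0.05. Goblet and small secretory cell genes had a median of 0.07 over 18, with 4 above 0 at an unadjusted p under 0.05. Ionocyte genes had a median of 0.01 over 18, with 3, and multiciliated cell genes -0.12 over 30, with 0. None of these was called by any of the tools. All these medians lie beside a median of -0.00041 over all genes.

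Markers of other tissues in the explants were measured as well. Neural progenitor markers had a median log2 fold change of -0.29 over 29 gene models, of which fabp7.L fell (-1.16, adjusted p = 0.000532, edgeR), 28 did not pass and 14 had an unadjusted p under 0.05, all below 0. Their summed level was 425 and 426 CPM with picrotoxin, against 526 and 521.4 CPM in controls. Skeletal muscle markers had a median of 0.00 over 24, with 8 at an unadjusted p under 0.05, 4 higher and 4 lower, and endoderm markers -0.07 over 18, with 2, both lower. Over all genes 7.51% had an unadjusted p under 0.05. None of either was called by edgeR, DESeq2 or limma-voom. The part of tissue makeup in the keratin values was not tested.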

How the data were processed

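Per the labels' protocols, the kit used for the RNA libraries keeps strand. The authors deposited estimated counts per RefSeq transcript, not scaled, for 80178 transcripts in 4 libraries. Aligner, counting tool and genome build: not given in the sources used here. All transcripts matched RefSeq gene models of Xenopus_laevis_v10.1. These gave names, chromosomes and neighbours, the gene of each transcript and which gene models are ribosomal RNA. Transcripts were summed to 39176 genes and rounded, in place of the raw gene counts planned. The 48 ribosomal RNA gene models stayed in library totals. No sequences or coding lengths were used, so levels per length, proteins and promoters were not analysed here.

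Genes were filtered with filterByExpr, scaled by TMM and tested two-sided with edgeR 4.0.16 (estimateDisp, glmQLFit with robust = TRUE, glmQLFTest) in R 4.3.3, adjusted by Benjamini-Hochberg over 26752 genes, threshold 0.05. Standard errors come from the F statistic. The 41 keratin genes left out had at most 10 counts. The S over L ratio of 6348 pairs, with 1 CPM added to both copies, was tested with limma 3.58.1. DESeq2 1.42.0 and limma-voom were alternatives. Running chromosome medians spanned 101 genes. The scripts were tested on simulated data.

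Members, lists and tests were chosen with earlier results of these data known, the call on krt12.5.S among them. Named were the called members, the 12 highest, their homeologs, the 4 smallest p among the rest and up to 4 genes per list. Others, such as krt62.S, krt18.1.S and krt8.2, are named for their role or pair and were chosen after their values were seen. Libraries of 1 group are different pools. Clutches are not given, so p-values measure the spread between pools. Every library pair differed by more than sampling noise (chi-square over its degrees of freedom 3.58 to 5.37 outside ribosomal RNA).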

Additional observations from a re-analysis of the deposited data

How the results depend on the processing

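Only 2 pools per group were available, and low keratin genes could not show moderate changes at this depth (SE of 0.56 for krt23.S). The krt12.5.S call was lost with library totals only (0.92, edgeR adjusted p = 0.238, 0 keratin genes called) and without control replicate 2 (0.88). Without 1 library its log2 fold change ran from 0.73 to 0.88. Such a fit leaves 1 library in a group, so its calls rest on the spread within the other group. The other alternatives kept the call, keratins left out of the scaling factors (chosen after seeing the data) included. Same-numbered libraries did not deviate together over all genes tested (correlation -0.02). This value cannot tell whether they shared a clutch or day, which is not given. With the replicate number as a block krt12.5.S was at 0.80 (adjusted p = 0.00460), 41 genes were called in all, and 20 pairs changed their S over L ratio, krt19 among them (0.44, adjusted p = 0.0386). The 47 calls over all genes became 22 with library totals only, 189 with no filter, 22 by DESeq2, 14 by limma-voom and 15 with chromosome medians removed, and 15 to 158 without 1 library. Library totals alone moved the median of all genes by 0.11. There krt12.4.L was at 0.11, krt70.S at 0.042, krt70.L at 0.073 and krt8.1.S at 0.066, against values below 0 with TMM, and krt12.4.S was at -0.049 with chromosome medians removed. Without 1 library krt12.4.L ran from -0.15 to 0.11, krt70.S from -0.26 to 0.068, krt70.L from -0.089 to 0.0049 and krt8.1.S from -0.30 to 0.17. The 8 pairs with a changed S over L ratio became 3 with 5 CPM added and 4 with edgeR's interaction, and 4 to 28 without 1 library. The change in ratio without 1 library ran from -0.064 to 0.20 for krt7, -0.18 to 0.087 for krt70, -0.064 to 0.026 for krt12.2, -0.087 to 0.35 for krt8.1, -0.079 to 0.68 for krt8.2, -0.23 to 0.53 for krt18.3, -0.14 to 0.25 for krt80 and -0.55 to 0.24 for krt23. The cause of these changes was not tested. The mean keratin share was 2.22% with picrotoxin and 1.82% in controls of all counts, where the libraries of the groups overlap. Of TMM effective library sizes it was 2.13% and 1.89%. There both picrotoxin libraries (2.06% and 2.20%) lay above both control libraries (1.97% and 1.81%). Both denominators are larger than the counts outside ribosomal RNA. Shares per coding length were not run.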

Other observations

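Intermediate filament genes outside the keratins gave no call among 27 gene models (edgeR, DESeq2 and limma-voom), with 3 at an unadjusted p under 0.05, all lower with picrotoxin. The neural progenitor filament gene nes.L stood at 29.99 and 36.1 CPM in the picrotoxin libraries, against 52.4 and 42.8 CPM in the control libraries, -0.52 ± 0.12 on the log2 scale (SE; edgeR adjusted p = 0.0884). Its copy nes.S was at -0.24 and prph.S, a filament gene of peripheral neurons, at -0.46. Both nes copies were also counted above, among the 14 neural progenitor markers at an unadjusted p under 0.05 (edgeR). The median of the 27 intermediate filament gene models was 0.00, beside 0.01 for the keratins.

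The S copies of krt18.1 and krt8.1 varied more between pools of a group than the median gene of like level. The log2 gap between the pools was 0.44 with picrotoxin and 0.62 in controls for krt18.1.S, and 0.43 and 0.43 for krt8.1.S. The median gap of the 426 genes outside ribosomal RNA that were at least as high as krt19.L was 0.11 between the picrotoxin pools and 0.10 between the control pools. Other abundant keratins had gaps above these medians as well: 0.33 and 0.26 for krt70.S, and 0.24 between the control pools for krt18.1.L, whose picrotoxin pools differed by 0.01. The gap for krt8.1.L was 0.05 with picrotoxin and 0.01 in controls.

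The minor transcripts of krt8.2.S, a copy at 27.6 and 26.7 CPM in the picrotoxin libraries and 31.5 and 25.1 CPM in the control libraries, held unequal shares across the libraries. One predicted transcript held 15.6% and 13.4% of the gene with picrotoxin, against 8.01% and 8.02% in controls, from 40 to 87 counts per library. Another held 4.88% and 3.21% with picrotoxin, against 10.3% and 6.74% in controls, from 21 to 57 counts per library. These shares were not tested, and how well the counting separates the transcripts is not known.

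Between the keratin genes of the clusters lie 8 gene models without a krt symbol. The highest of them, terf2ip.L, a telomere protein gene, had 505 and 598 counts with picrotoxin, against 453 and 540 in controls, and the other 7 had at most 32 counts in a library.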
